A study of Mus musculus with 20 samples.

Results

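The comparison described here is that of the HFoleic group with the Ref group, chosen by the sample titles: the 6 arrays of mice of the control fatty acid lineage on the high-fat diet against the 6 arrays of mice of the same lineage on the standard diet, 12 of the 20 arrays of the series. All 12 mice were C57bl/6J males of the third generation (F3) of 1 lineage, whose growing diet had been supplemented with high-oleic sunflower oil, and the labels give no transgene or drug. HFoleic mice received a high-fat, high-sucrose diet (HFD) and Ref mice a low-fat reference diet until the sampling of epididymal fat, a visceral adipose tissue (VAT). The methods place the sampling in a fasting period, whose length they do not give. RNA of whole tissue was labelled with Cy3 and hybridized to 1-colour Agilent arrays, 1 per mouse, and the 8 arrays of the EPA lineage enter the filter on dim probes, the normalization and the estimate of the spread of each probe. The methods name fat and sucrose for the HFD and fat for the reference diet, so a part of fat energy and a part of sugar cannot be told apart here, and the mice are males of a single strain.

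White adipose tissue stores fatty acids as triglyceride in adipocytes, releases them by lipolysis under adrenergic control, and secretes hormones such as leptin. The cells between the adipocytes are fibroblasts and progenitors, vessels and immune cells, among which macrophages gather around dying adipocytes and take up their lipid into lysosomes. Collagens laid down around adipocytes, and the mitochondria that burn or rebuild carbon skeletons inside them, are known to differ between lean and obese fat depots.

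Values are log2 signals of the median intensity of a probe after quantile normalization, and a change is the HFoleic mean minus the Ref mean on that scale. A gene was called at an adjusted p under 0.05, where each adjusted p is from limma with Benjamini–Hochberg adjustment over all probes tested. Of 39391 probes tested, 30.8% were called. Among 25619 genes, each read by its brightest probe, 15.2% were called higher and 16.7% lower in HFoleic mice, and 14% had no overlap between the groups. The median change of all genes was -0.039, and that of the called genes had a size of 0.449, so most calls were of small changes. A change over 2-fold was seen in 938 called genes, of which 675 were higher and 263 lower. The gene lists below were chosen with earlier results of these data known. Their shares therefore describe these data and are not tests of a pathway or cell type. The background was not subtracted, so changes of dim probes are understated. The arrays correlated at 0.9777 or more within the Ref group and at 0.9825 or more within the HFoleic group, and the median raw signal was 83 to 103 in the Ref and 96 to 113 in the HFoleic arrays, before normalization. The 12 arrays lay on 3 slides, each with both groups. Within slides 1 and 3, 81 and 11 probes were called, with at most 3 mice a group. The sign of the contrast was seen on every slide in 8093 of the 8159 called genes. The slides hold the same mice that gave the calls, so this count is no separate support for them.

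The tissue was fat by its own markers. All 12 markers of adipocytes were well above background in every mouse, and Adipoq, the gene of adiponectin, was between 17.99 and 18.21 in Ref mice and between 17.91 and 18.26 in HFoleic mice. Arrays of 3 mice also carried RNA of the neighbouring organs. The mean level of 4 testis genes was 9.064 in HFoleic mouse 5, 8.268 in Ref mouse 3 and 8.415 in Ref mouse 6, against 5.871 to 6.604 in the other mice. When these 3 mice were left out, a choice made after seeing the data, 6832 probes were called in place of 12147. Of the genes named below as called, 21 were then not called (adjusted p between 0.0537 and 0.163): Adrb3, Apoe, Cd163, Cd2, Cd300lf, Cfd, Cpt1a, Ctsd, Dio2, Elovl6, Folr2, Hspa5, Insr, Irs1, Mcm4, Nid2, Plin2, Pnpla2, Ppargc1a, Tpi1 and Trib3. HFoleic mouse 1 stood nearest to the Ref mice in many of the results below, and without it 13175 probes were called.

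**Figure D1:**
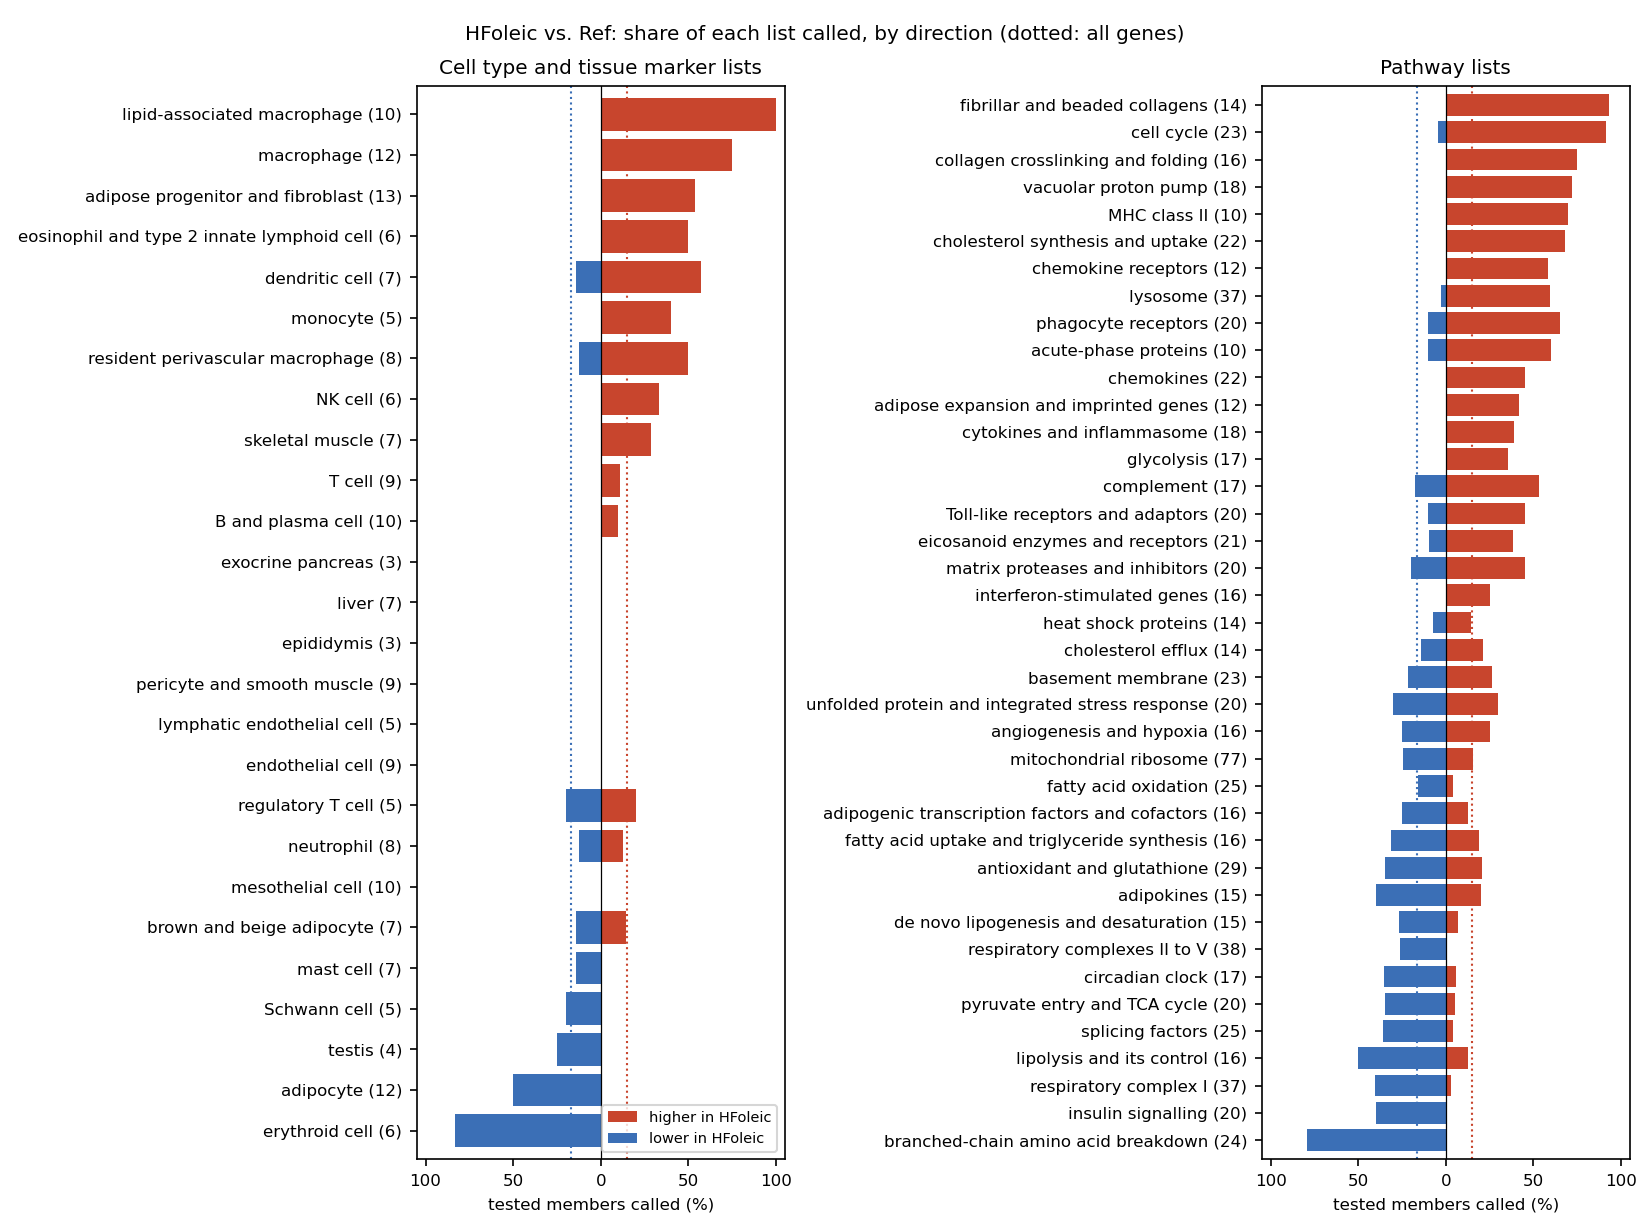
Share of the tested members of each list that was called higher (red, to the right) or lower (blue, to the left) in HFoleic than in Ref mice, in percent, with the number of tested members in parentheses. The lists were chosen with earlier results of these data known. The dotted lines mark the share of all genes, 15.2% higher and 16.7% lower; the lists of lipid-associated macrophages, collagens and cell cycle lie far to the right and those of branched-chain amino acid breakdown and erythroid cells far to the left.

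Adipocyte markers split into genes that fell and genes that were not called. Of 12 markers, 6 were called lower, none was called higher, and the median change was -0.375. Lipe, the gene of hormone-sensitive lipase, which cuts diglycerides, was lowest at 13.93, had a median of 14.2 and was highest at 14.37 in Ref mice, against 12.56, 12.87 and 13.85 in HFoleic mice. The groups did not overlap, with HFoleic mouse 1 nearest to the Ref mice, and the fall was 1.19 (SE 0.199, adjusted p = 5.17e-04), or 2.27-fold. Retn (resistin) fell by 0.65 and Cfd (the serine protease adipsin) by 0.50, both with an overlap of the groups. In contrast, Adipoq differed by -0.03 (SE 0.076, adjusted p = 0.829), Cidec, which fuses lipid droplets, by 0.02, and Pparg, the master regulator of fat cell genes, by -0.23 (adjusted p = 0.167). This split depended on the processing: with the processed signal of the scanner software scaled to its 75th percentile, in place of quantile-normalized medians, 10 of the 12 markers were lower, among them Adipoq (adjusted p = 0.0364) and Cidec, by -0.28 (adjusted p = 0.0247). Fewer adipocytes and less RNA per adipocyte cannot be told apart in RNA of whole tissue, here and in all results below. The mean level of the adipocyte list was 16.21 to 16.65 in Ref mice and 15.64 to 16.41 in HFoleic mice, with HFoleic mouse 1 as the highest of its group.

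Enzymes, receptors and inhibitors of fat breakdown were among the lower genes. In the list of lipolysis and its control, 8 of 16 genes were called lower and 2 higher. Among the lower genes besides Lipe were Pnpla2, which cuts the first fatty acid off triglyceride, its coactivator Abhd5 and its inhibitor G0s2, with falls of 0.42, 0.78 and 0.63. The beta-adrenergic receptors Adrb1 and Adrb3 fell by 0.84 and 0.89, and Pde3b, the phosphodiesterase through which insulin restrains lipolysis, by 0.86. The list thus holds activators and inhibitors that fell together. The Pnpla2 call was lost without HFoleic mouse 4, 5 or 6 or Ref mouse 4 or 5 (adjusted p between 0.053 and 0.0703), and that of Adrb3 without HFoleic mouse 4 or 6 (adjusted p = 0.0537 and 0.054). Higher were Adora1, the adenosine receptor that lowers cyclic AMP (by 0.91), and the droplet coat gene Plin2 (by 0.92, adjusted p = 0.0105).

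Within the lists of fatty acid synthesis and triglyceride assembly, single steps moved in opposite directions. Acaca and Acacb make malonyl-CoA, the building block of fatty acids and the brake on mitochondrial fatty acid import. Acacb had a minimum, median and maximum of 14.51, 14.94 and 15.07 in Ref mice and of 12.47, 12.79 and 13.93 in HFoleic mice, and fell by 1.83 (SE 0.295, adjusted p = 4.71e-04). Acaca went from 14.83, 15.2 and 15.51 to 13.62, 13.7 and 14.36 and fell by 1.37 (SE 0.206, adjusted p = 3.85e-04). Neither gene had any overlap between the groups, and 5 other probes of Acaca and 2 of Acacb were called in the same direction. The elongase Elovl6 and the desaturase Fads1 fell by 0.73 and 0.64. Fasn, the synthase downstream of Acaca, differed by -0.19 (adjusted p = 0.528), and Scd1, Acly and Me1 were not called. Scd2, a desaturase that makes monounsaturated fatty acids, rose by 2.12 (SE 0.478, adjusted p = 0.00283), from 10.77, 11.76 and 13.51 to 12.5, 14.3 and 14.66, with 1 Ref mouse inside the HFoleic range.

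Of 16 genes of fatty acid uptake and triglyceride synthesis, 3 were called higher and 5 lower. Dgat2, which adds the last fatty acid to triglyceride, was at 14.87, 15.95 and 16.9 in Ref mice and at 16.92, 17.42 and 17.77 in HFoleic mice, and rose by 1.51 (SE 0.269, adjusted p = 7.16e-04). Gpd1, which makes glycerol phosphate from glucose, rose by 1.06, and the acyltransferase Agpat2 by 0.93. The 2 genes with the largest falls lie on other routes to the same product: Mogat1, which acylates monoglyceride, fell by 1.38, and Pck1, the enzyme of glyceroneogenesis, fell by 1.16, with a Pck1 range of 17.44 to 17.6 in Ref mice and of 15.51 to 17.4 in HFoleic mice. The lipase Lpl and the fatty acid transporter Cd36 differed by 0.10 and -0.08 and were not called.

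Cholesterol genes rose as a group. Of 22 genes of cholesterol synthesis and uptake, 15 were called higher and none lower, the median change was 0.577, and 10 of the 22 had no overlap. Insig1, which holds the sterol sensor in the endoplasmic reticulum and is itself induced when sterols run low, was at 7.244, 7.839 and 8.388 in Ref mice and at 8.674, 9.526 and 10.35 in HFoleic mice, a rise of 1.70 (SE 0.285, adjusted p = 5.13e-04). Dhcr7, the last enzyme of the pathway, rose by 1.62, and Lss, the cyclase that forms lanosterol, by 0.94. Hsd17b7 and Sc5d rose by 0.78 and 0.67 with the smallest adjusted p of the list (2.01e-04 and 3.19e-04). Srebf2, the factor that drives the pathway, differed by 0.25 and was not called. In the list of cholesterol efflux and storage, Soat1, which esterifies cholesterol for storage, rose by 1.87 (SE 0.41, adjusted p = 0.0024) from a range of 8.553 to 9.246 to one of 9.653 to 11.35. Pltp, which moves phospholipids between lipoproteins, rose by 0.93, and Apoe, their apolipoprotein E, fell by 0.38. The exporters Abca1 and Abcg1 differed by -0.20 and -0.07 and were not called.

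**Figure D2:**
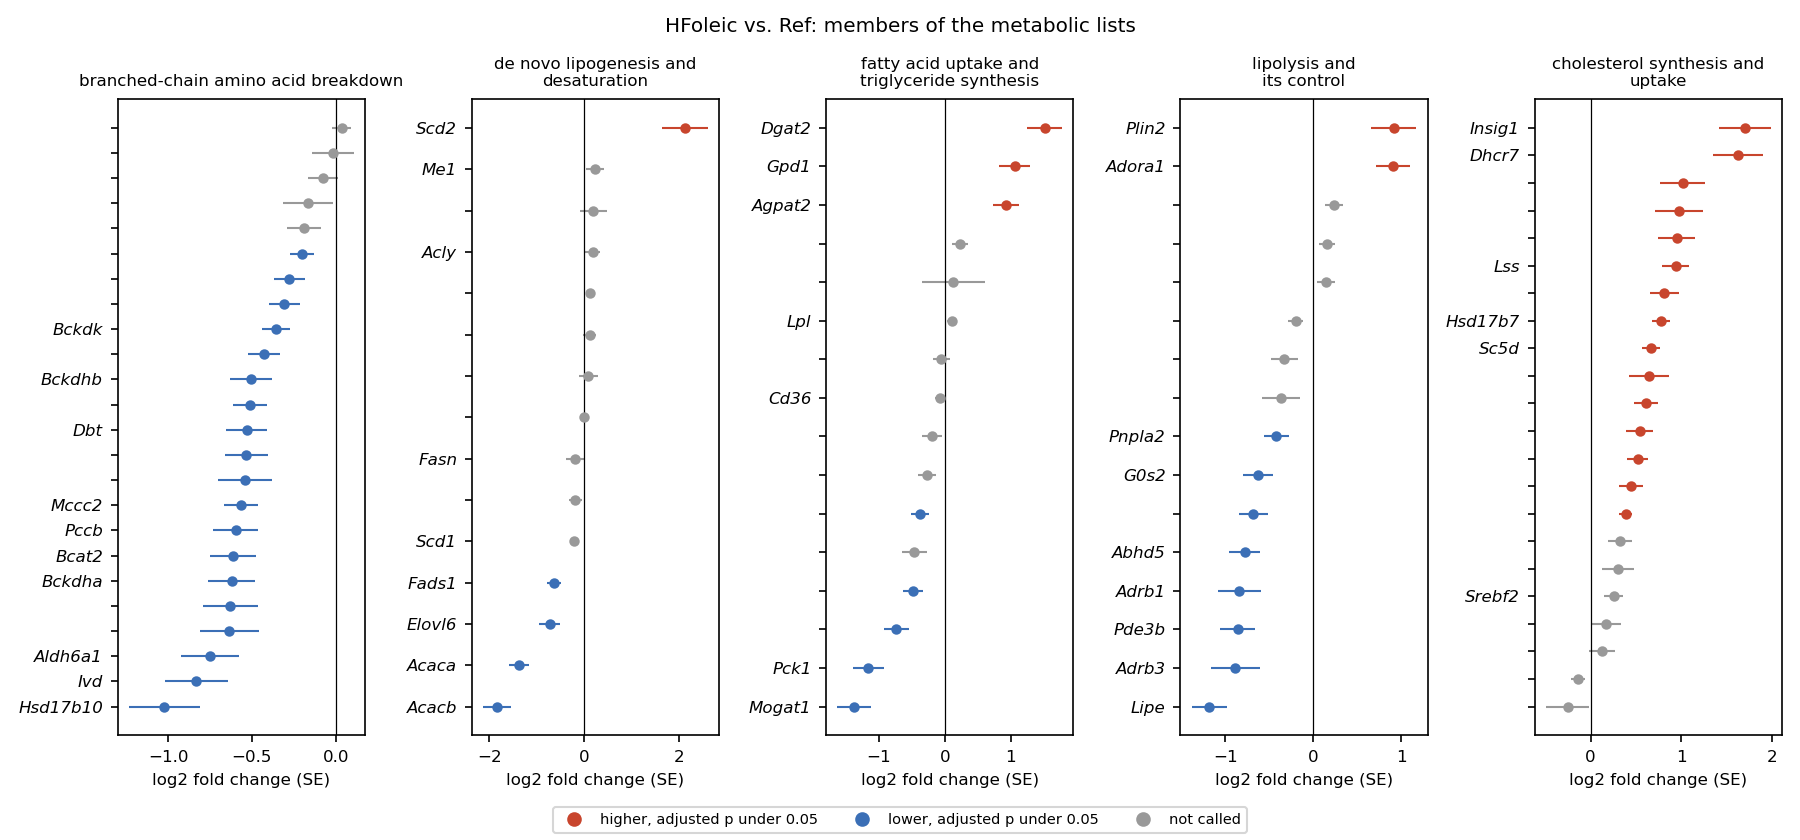
Change of every tested member of 5 metabolic lists, with the genes named in the text labelled, as log2 fold change of HFoleic vs. Ref mice with its standard error (SE, 6 mice a group). Red and blue points are genes called higher or lower and grey points are genes not called. Blue are 19 of 24 genes of branched-chain amino acid breakdown, and red are 15 of 22 cholesterol genes.

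The pathway with the highest share of lower genes was the breakdown of the branched-chain amino acids leucine, isoleucine and valine. Of 24 genes chosen for this list, 19 were called lower and none higher, with a median change of -0.521 and 6 genes without overlap. The list is not the whole pathway. The paper reports other genes that it counts to the pathway, such as Bcat1, Oxct1 and Abat, as higher in HFoleic mice. The calls ran along the whole route. Bcat2, the mitochondrial transaminase of the first step, fell by 0.61, and Bckdha, Bckdhb and Dbt, the subunits of the branched-chain ketoacid dehydrogenase, by 0.62, 0.51 and 0.53. Downstream, Ivd (leucine) fell by 0.83, Mccc2 (leucine) by 0.57, Hsd17b10 (isoleucine) by 1.02, Aldh6a1 (valine) by 0.75 and Pccb (propionate) by 0.60. Hsd17b10 was at 14.64, 14.93 and 15.28 in Ref mice and at 13.52, 13.82 and 14.34 in HFoleic mice, without overlap. Bckdk, the kinase that inhibits the dehydrogenase, fell as well, by 0.36. The mean level of the list was 12.91 to 13.3 in Ref mice and 12.42 to 12.91 in HFoleic mice.

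Respiratory genes leaned lower by small steps, although most were not called. Of 37 genes of complex I, 15 were called lower and 1 higher. Of 38 genes of complexes II to V, 10 were called lower and none higher, where 16.7% of all genes were lower. The medians were -0.198 and -0.174, and 4 of the 37 and 2 of the 38 changes were above 0. With the scanner software's processed signal, 18 of the 38 were lower. The exception that rose was the accessory subunit Ndufb3 of complex I, by 0.35. Sdha and Sdhb, which tie the TCA cycle to complex II, fell by 0.45 and 0.36, and Atp5c1 of the ATP synthase by 0.46. In the list of pyruvate entry and the TCA cycle, 7 of 20 genes were lower. Pdha1 of pyruvate dehydrogenase was the call with the smallest p and fell by 0.63. The subunits that give succinyl-CoA synthetase its nucleotide preference went apart: Suclg2, for GTP, fell by 0.59 and Sucla2, for ATP, rose by 0.52, the latter not called as the mean of all its probes. Fatty acid oxidation had 4 of 25 genes lower and 1 higher and a median of -0.0128, close to that of all genes, and 2 were lower after median centring of the arrays. The higher gene was Cpt1a, which carries fatty acids into mitochondria (0.62). Genes of the mitochondrial ribosome went both ways, with 12 of 77 higher and 19 lower, or 8 lower after median centring, where 15.2% and 16.7% of all genes were higher and lower. In glycolysis 6 of 17 genes were higher and none lower, and Tpi1 was the largest at 0.82, but with the processed signal 2 were higher and 1 lower.

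Acsm3, a mitochondrial enzyme that activates medium-chain fatty acids, had the largest fall of all genes named by the rule, with 11.31, 12.35 and 12.47 in Ref mice against 7.249, 7.839 and 10.95 in HFoleic mice. Its change was -3.62 (SE 0.647, adjusted p = 7.34e-04).

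Some genes of insulin signalling and of fat cell hormones were lower, and leptin was higher. Of 20 genes of insulin signalling, 8 were called lower and none higher, or 5 lower after median centring. Irs2, an adaptor of the insulin receptor, was at 13.16, 13.47 and 13.67 in Ref mice and at 12.02, 12.39 and 13.1 in HFoleic mice, and fell by 0.99 (SE 0.194, adjusted p = 0.00127). The kinase subunit Pik3cb fell by 0.84, the adaptor Irs1 by 0.67 and the receptor Insr by 0.51, the last not called without HFoleic mouse 5 (adjusted p = 0.052). Slc2a4, the insulin-responsive glucose transporter GLUT4, differed by 0.14 (adjusted p = 0.601). The mean level of this list did not overlap, at 12.23 to 12.34 in Ref and 11.89 to 12.22 in HFoleic mice. Lep, the gene of leptin, rose by 1.13 (SE 0.202, adjusted p = 7.41e-04), from 8.019, 8.391 and 9.041 to 8.756, 9.723 and 9.856, with only HFoleic mouse 1 inside the Ref range. Sfrp5, a secreted Wnt inhibitor of fat cells, rose by 1.60. Agt (angiotensinogen) fell by 1.51 without overlap, and the adiponectin receptors Adipor1 and Adipor2 fell by 0.28 and 0.52. Mest, an imprinted gene of fat expansion, rose by 1.24, but was not called as the mean of its 3 probes.

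Among 16 transcription factors and cofactors of adipocytes, 4 were called lower and 2 higher, where 16.7% and 15.2% of all genes were lower and higher. Cebpd, an early factor of adipocyte formation, fell by 1.46 (SE 0.301, adjusted p = 0.00164), from a range of 13.71 to 14.3 to one of 11.93 to 13.06. Ebf2 and Ebf1, which keep adipocyte precursors and adipocytes in their state, fell by 0.82 and 0.64. Ppargc1a, a coactivator of mitochondrial genes, fell by 0.71 (adjusted p = 0.0213), and this call was lost without Ref mouse 3 (adjusted p = 0.0525) and without Ref mouse 6 (adjusted p = 0.0562). Its nuclear partner Esrra rose by 0.52 without overlap. In the circadian clock, 6 of 17 genes were lower and 1 higher. The repressors Per1 and Per2 fell by 1.33 and 0.81, and Per1 was at 12.68, 12.99 and 13.36 in Ref mice against 11.44, 11.62 and 12.11 in HFoleic mice, without overlap. Time of day at sampling is not given in the sources used here and was not tested.

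**Figure D3:**
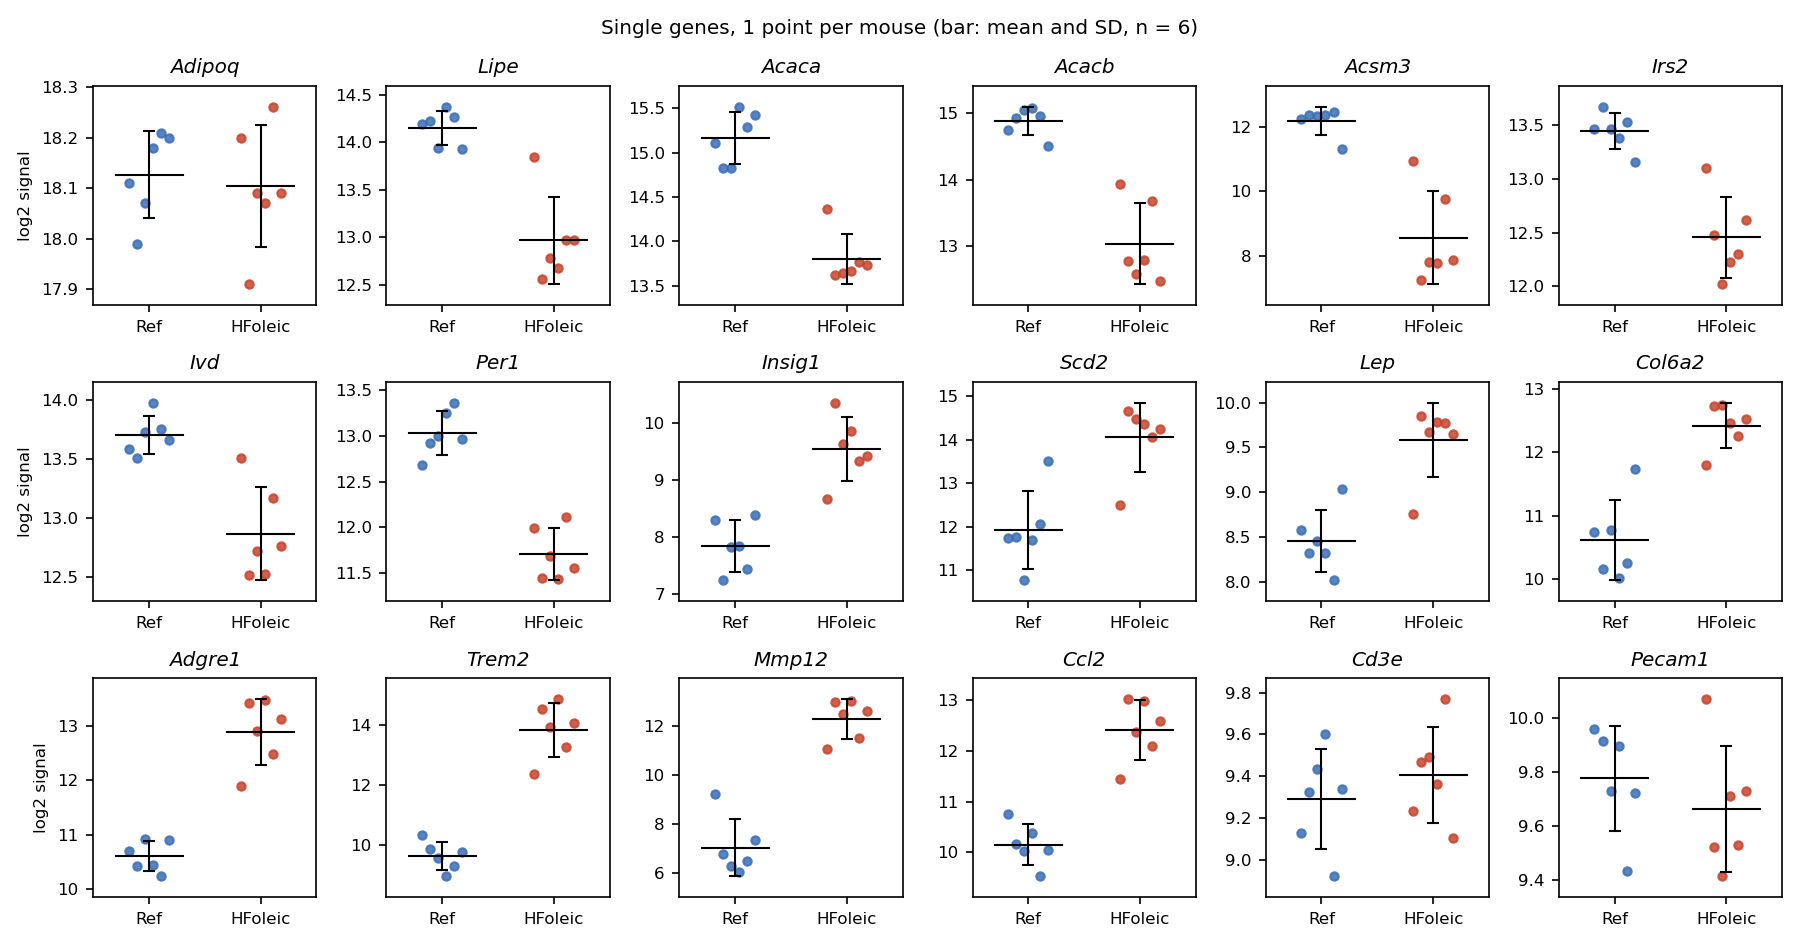
Log2 signal of 18 genes in each mouse, with the mean and SD of the 6 mice a group and a vertical axis of its own for each gene. Adipoq, the T cell gene Cd3e and the endothelial gene Pecam1 overlap widely, while Acaca, Acacb, Irs2, Per1, Insig1, Adgre1, Trem2 and Ccl2 do not overlap.

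General macrophage markers were higher as a group. Of 12 general macrophage markers, 9 were called higher and none lower, with a median change of 1.17. Adgre1, the gene of the F4/80 antigen, was at 10.24, 10.58 and 10.92 in Ref mice and at 11.9, 13.01 and 13.47 in HFoleic mice, a rise of 2.27 (SE 0.435, adjusted p = 0.0011). Cd68, a glycoprotein of macrophage lysosomes, rose by 2.41, the lysozyme gene Lyz2 by 1.60 and the receptor Csf1r, through which macrophages are kept alive, by 1.02. The mean level of the list was 11.02 to 11.53 in Ref mice and 11.86 to 12.97 in HFoleic mice, with HFoleic mouse 1 lowest of its group. Not all markers moved: Mertk, which clears dead cells, differed by -0.09 and Cd14 by -0.29, and neither was called.

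All 10 genes of lipid-associated macrophages, a state named for macrophages that take up lipid in fat tissue, were called higher, with a median change of 3.09. Trem2, the lipid-sensing receptor of that state, was at 8.968, 9.659 and 10.33 in Ref mice and at 12.39, 14.02 and 14.87 in HFoleic mice, an 18.7-fold rise on this scale (log2 4.22, SE 0.741, adjusted p = 6.7e-04, probe at chromosome 17, 48491537 to 48491596, mm9). Gpnmb, a glycoprotein of the lysosome, rose 29.7-fold (chromosome 6, 49006386 to 49006445), from at most 9.066 to at least 11.97. Mmp12, the macrophage elastase, was at 9.22 in 1 Ref mouse and at 6.05 to 7.33 in the other 5, and at 11.06 to 13.02 in HFoleic mice. The integrin Itgax (CD11c) rose by 3.16, the fatty acid binding protein Fabp5 by 1.26 and Spp1 (osteopontin) by 3.01, the last with a single Ref mouse at 9.852 and an overlap. Markers of resident perivascular macrophages were less uniform, since 4 of 8 were higher and 1 lower. The mannose receptor Mrc1 rose by 0.76 and Folr2 by 0.92, Lyve1 differed by -0.43 (adjusted p = 0.371), and the haemoglobin receptor Cd163 fell by 0.54 (adjusted p = 0.0239), a call lost without HFoleic mouse 5, HFoleic mouse 6 or Ref mouse 4.

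Other immune cells were seen through shorter lists. Among dendritic cell markers 4 of 7 rose and 1 fell. Flt3, a growth factor receptor, was up by 1.00. Batf3 and Clec9a of the cross-presenting type were up by 1.05 and 0.78, and all 3 were without overlap. The gene that fell was Zbtb46, by 0.65 with an overlap (adjusted p = 0.00517). Of the rest, 2 were not called and 1 more listed gene was too dim to test, so the list did not rise as a whole. Ccr2, the receptor by which monocytes leave the blood, rose by 1.40, while the monocyte markers Ly6c2 and Plac8 were not called. In the neutrophil list, S100a8 rose by 2.46, while its partner S100a9 differed by -0.44 (adjusted p = 0.229) and Mpo and Elane of the granules were not called. The list of eosinophils and type 2 innate lymphoid cells had 3 of 6 genes higher, with Siglecf, well above background in only 2 Ref mice, up by 1.39. Gzma, a granzyme of cytotoxic cells, rose by 1.13. T cells had 1 of 9 genes higher (Cd2, an adhesion receptor, by 0.52, a call lost without HFoleic mouse 5 or 8 or Ref mouse 2, 5 or 6), and Cd3e was at 8.924 to 9.603 in Ref mice and at 9.108 to 9.768 in HFoleic mice (change 0.11, adjusted p = 0.563). Among B and plasma cell genes the single call was Sdc1, up by 1.07, which fibroblasts and macrophages also express. No marker of endothelial cells (9), lymphatic endothelium (5) or pericytes and smooth muscle (9) was called, and Pecam1 of endothelial cells differed by -0.11 (adjusted p = 0.572).

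**Figure D4:**
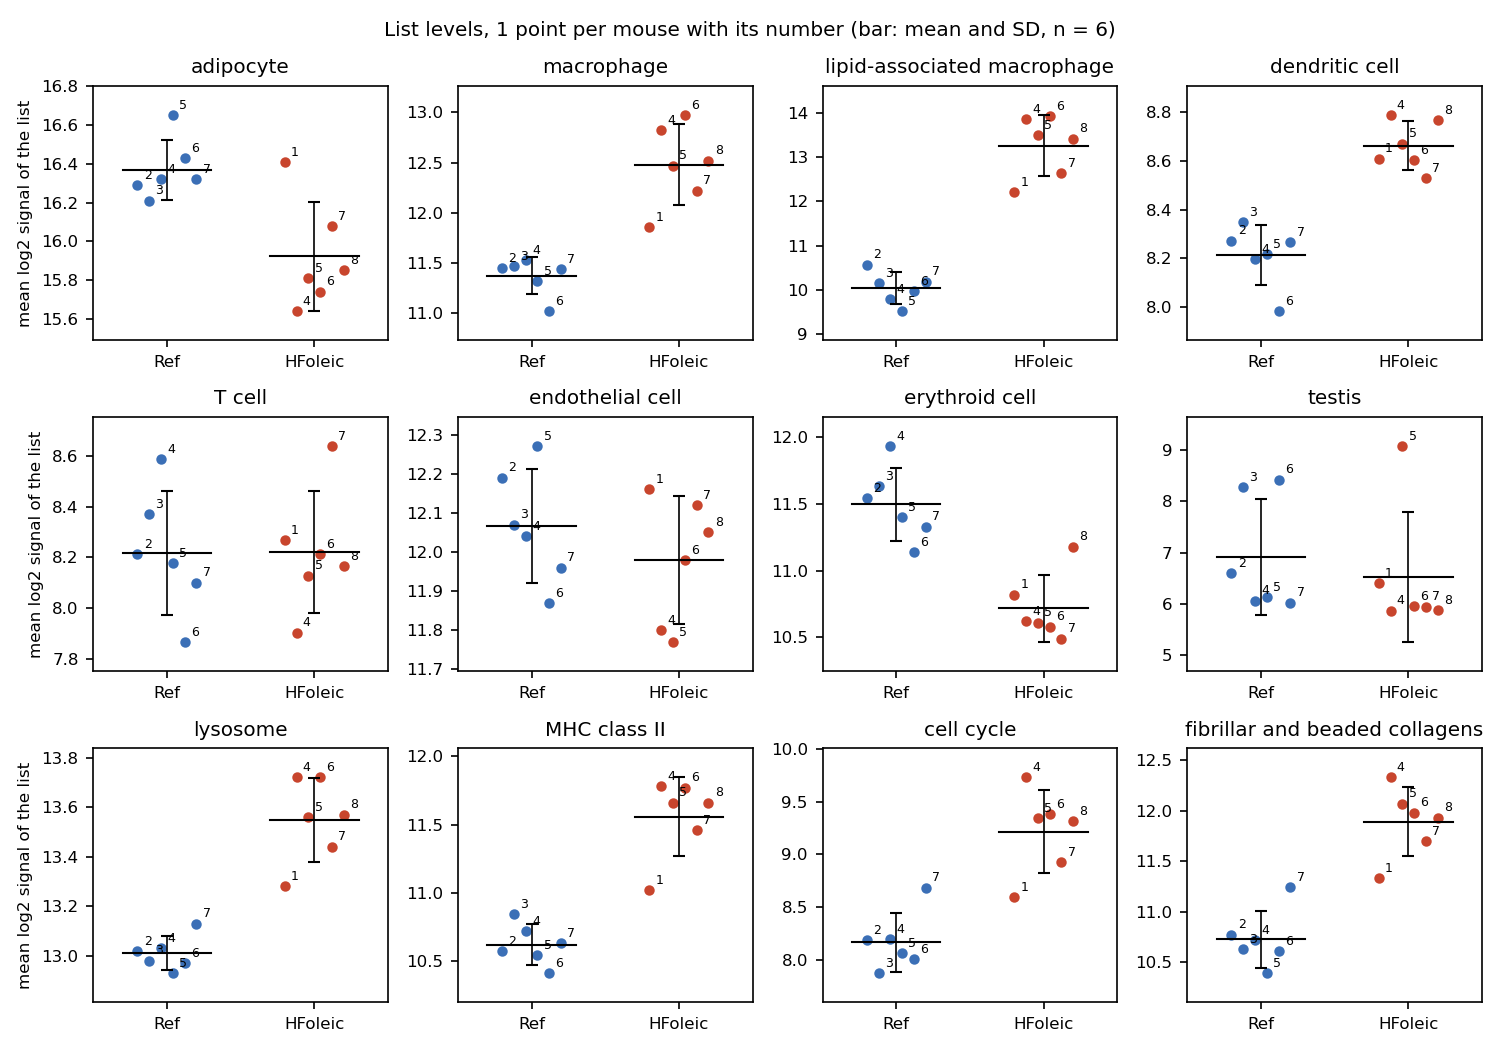
Mean log2 signal of 12 lists in each mouse, numbered as in the labels, with the mean and SD of the 6 mice a group. HFoleic mouse 1 is the lowest HFoleic mouse for the macrophage, lysosome, MHC class II, cell cycle and collagen lists and the highest for adipocytes, while HFoleic mouse 5 and Ref mice 3 and 6 are high for testis genes.

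Lysosomes, where engulfed material is degraded at acid pH, moved with the macrophage markers, whose part in these changes was not tested. Of 37 lysosomal genes 22 were higher and 1 lower, with a median change of 0.478 and 17 genes without overlap. Ctss, a cathepsin of antigen-presenting cells, rose by 3.03 (SE 0.541, adjusted p = 7.26e-04), from 12.41, 12.92 and 13.46 to 14.78, 16.07 and 16.62. Lipa, the acid lipase that frees cholesterol and fatty acids, rose by 1.51, and the cathepsins Ctsl and Ctsd by 0.98 and 0.69. The exception Sgsh, a heparan sulfatase, fell by 0.63 with its brightest probe, while its other probe was called higher. Of 18 subunits of the vacuolar proton pump, which acidifies lysosomes, 13 were higher and none lower. The Atp6v0d2 subunit, typical of macrophages and osteoclasts, rose 25.2-fold, the Tcirg1 subunit by 1.53 and the catalytic subunit Atp6v1a by 0.81, so the rises ran from subunits of restricted expression to subunits that all cells use.

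Many lysosomal genes are known to share the CLEAR element, the 8 letters TCACGTGA that the factor TFEB binds. On either strand of the promoter window around the start (RefSeq, GRCm38.p6), these letters stood in 4 of 29 lysosomal genes and 3 of 12 pump genes found in the promoter table, against 1.12% of all its genes. Some genes that hold them were called and others were not. Of the 3 pump genes 2 were called higher, and of the 4 lysosomal genes Ctsd was called, and Ctsa, Gla and Mcoln1 were not, with changes of 0.01, 0.09 and -0.02. Gla (alpha-galactosidase) holds the element more than once and had 16.82 to 16.98 in Ref mice and 16.91 to 17.12 in HFoleic mice (adjusted p = 0.243). Tfeb itself differed by -0.17 and was not called. The stretches below are upstream of the start, with the element in capitals: Atp6v1a (chr16:44139324-44139451, minus strand) and Ctsd (chr7:142387859-142387986, minus strand) as genes that rose, and Gla (chrX:134601133-134601255, minus strand) as one that was not called.
Atp6v1a: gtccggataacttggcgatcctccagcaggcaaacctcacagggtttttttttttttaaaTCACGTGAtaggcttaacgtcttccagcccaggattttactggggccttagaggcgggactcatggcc
Ctsd: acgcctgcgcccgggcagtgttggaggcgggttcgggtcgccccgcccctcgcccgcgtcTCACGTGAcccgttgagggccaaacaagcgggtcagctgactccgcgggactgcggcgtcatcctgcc
Gla: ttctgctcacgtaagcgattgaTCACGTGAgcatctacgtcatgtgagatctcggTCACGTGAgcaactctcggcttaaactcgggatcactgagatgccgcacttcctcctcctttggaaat

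Among the respiratory genes above, the site of the factor NRF1, GCATGCGC on either strand, stood in 8 of 31 genes of complexes II to V and 3 of 33 of complex I (1 of the 3 called lower), against 3.05% of all genes. Of the 8, Atp5g2, Sdhb and Uqcrc1 were called lower, by 0.31, 0.36 and 0.27, the last not after median centring (adjusted p = 0.0645), and the other 5 were not called. Sdhb (chr4:140961157-140961270, plus strand) and Atp5g2 (chr15:102671048-102671147, minus strand) are shown as called genes that hold it, the latter with overlapping copies. Sites of the factors SREBP, ERR and PU.1 were also searched in every list and are otherwise not described. The sterol response element of SREBP stood in 1 of 17 cholesterol genes, but in none of those called higher, against 1.44% of all genes. A match of letters is a description and does not show that a factor binds there.
Sdhb: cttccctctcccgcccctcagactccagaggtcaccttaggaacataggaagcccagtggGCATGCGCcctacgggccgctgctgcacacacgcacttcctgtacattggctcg
Atp5g2: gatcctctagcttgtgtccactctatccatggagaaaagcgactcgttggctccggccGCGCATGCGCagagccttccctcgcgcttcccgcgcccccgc

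Signals that attract and arm phagocytes rose in part. Of 20 phagocyte receptors 13 were higher and 2 lower, with Clec7a (dectin-1) up by 2.31 and the signalling adaptor Tyrobp up by 2.33. Olr1, a receptor for oxidized lipoprotein, was not well above background in any Ref mouse and was at least 1.48-fold higher in HFoleic mice (adjusted p = 0.00174). Cd300lf, an inhibitory receptor, fell by 1.36. Of 22 chemokines 10 were higher and none lower. Ccl2, which calls monocytes through Ccr2, was at 9.53, 10.11 and 10.76 in Ref mice and at 11.45, 12.48 and 13.02 in HFoleic mice, a rise of 2.26 (SE 0.372, adjusted p = 4.82e-04). Ccl7 rose by 1.38 and Ccl9 by 1.85, while the chemokines of lymphocytes Cxcl9 and Cxcl13 were not called. Of 12 chemokine receptors 7 were higher, among them Cxcr4 by 1.05.

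The cytokine genes Tnf, Il6 and Il1b stayed short of the threshold, whereas the gene of an antagonist of interleukin-1 rose. Of 18 genes of cytokines and the inflammasome, 7 were higher and none lower. Il1rn, the antagonist of the interleukin-1 receptor, rose by 3.82 (SE 0.648, adjusted p = 5.64e-04), from 4.843, 5.279 and 5.689, where it was well above background in 2 of 6 Ref mice, to 7.782, 9.32 and 10.14. The inflammasome genes Casp1 and Pycard rose by 1.11 and 1.67. In contrast, Tnf differed by 0.28 (adjusted p = 0.0556, and between 0.00449 and 0.0318 under 5 alternative settings), Il6 by 0.07 (adjusted p = 0.735), Il1b by -0.17 (adjusted p = 0.57) and Nlrp3 by -0.08. Of 20 Toll-like receptors and adaptors, 9 were higher and 2 lower, and the endosomal receptors Tlr8 and Tlr13 rose by 2.25 and 2.21. Interferon-stimulated genes had 4 of 16 higher and 12 not called, where 15.2% of all genes were higher. Ifit3 and Mx1 were up by 0.55 and 0.77.

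Antigen presentation by MHC class II had 7 of 10 genes higher and none lower. Its regulator Ciita rose by 1.31, and H2-Aa and H2-Eb1, chains of the class II molecules, rose by 1.36 and 0.99, and all 7 called genes were without overlap. In complement, 9 of 17 genes were higher and 3 lower. Cfb rose by 0.79 and the receptor C3ar1 by 1.90, whereas C2, the counterpart of Cfb in the classical pathway, fell by 1.19 (SE 0.212, adjusted p = 7.15e-04). Among acute-phase proteins, 6 of 10 were higher and 1 lower. Saa3, the serum amyloid A of fat and macrophages, ranged from 7.514 to 9.356 in Ref mice and from 10.35 to 15.16 in HFoleic mice, a spread of nearly 5 log2 units in the latter. Saa1 and Lbp, which binds bacterial endotoxin, rose by 2.07 and 1.76. Probes of Saa1 and its close copy Saa2 may read each other. Cp (ceruloplasmin, a ferroxidase) fell by 1.47 with 4 other probes in the same direction. In eicosanoid metabolism 8 of 21 genes were higher and 2 lower. Alox5ap, which presents arachidonic acid to 5-lipoxygenase, rose by 1.45, Tbxas1 (thromboxane synthase) by 1.78, and Hpgd, which inactivates prostaglandins, fell by 0.93. The cyclooxygenases Ptgs1 and Ptgs2 differed by 0.04 and -0.55 and were not called.

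Fibrillar and beaded collagens rose almost throughout. Of 14 genes, 13 were called higher and none lower, with a median change of 1.27 and 10 genes without overlap. Col6a2, a chain of the collagen VI that wraps adipocytes, was at 10.01, 10.5 and 11.74 in Ref mice and at 11.8, 12.49 and 12.74 in HFoleic mice, a rise of 1.80 (SE 0.297, adjusted p = 4.82e-04). Col6a1 and Col6a3 rose by 1.58 and 1.24, Col1a1 by 1.49, Col3a1 by 1.38 and Col5a1 by 1.26. Ref mouse 7 had the highest Ref level of the list, at 11.24 against 10.39 to 10.77 in the other Ref mice, and HFoleic mouse 1 the lowest HFoleic level, at 11.33. Enzymes that fold and crosslink collagen followed, with 12 of 16 higher and none lower, among them the chaperone Serpinh1 (1.00), the procollagen enhancer Pcolce2 (1.75) and the oxidase Loxl1 (0.92). Lox itself differed by -0.19 (adjusted p = 0.418).

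The basement membrane, the sheet on which each adipocyte and vessel rests, did not follow. Of 23 genes, 6 were higher and 5 lower, and the median change was near 0. Lama1, a laminin chain, fell by 2.82 (SE 0.551, adjusted p = 0.00124), from 8.56, 9.089 and 9.53 to 5.423, 6.119 and 7.493, where it was well above background in 4 of 6 mice. The adipocyte and vessel laminin Lama4 fell by 0.53, while Lamb3 and the nidogen Nid2 rose by 1.51 and 1.03. Proteases and their inhibitors went both ways, with 9 of 20 higher and 4 lower. Adam8, a protease of myeloid cells, rose by 3.79, Mmp3 by 1.14 and the inhibitor Timp1 by 1.89 without overlap, while the inhibitor Timp3 fell by 0.74. Of the fibroblast and progenitor markers, 7 of 13 were higher. They included Lum (lumican, 1.57), Thy1 (0.62), and Col1a1 and Col3a1, which are also counted among the collagens above. Pdgfra and Dcn, further markers of these cells, differed by -0.05 and -0.07 and were not called.

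**Figure D5:**
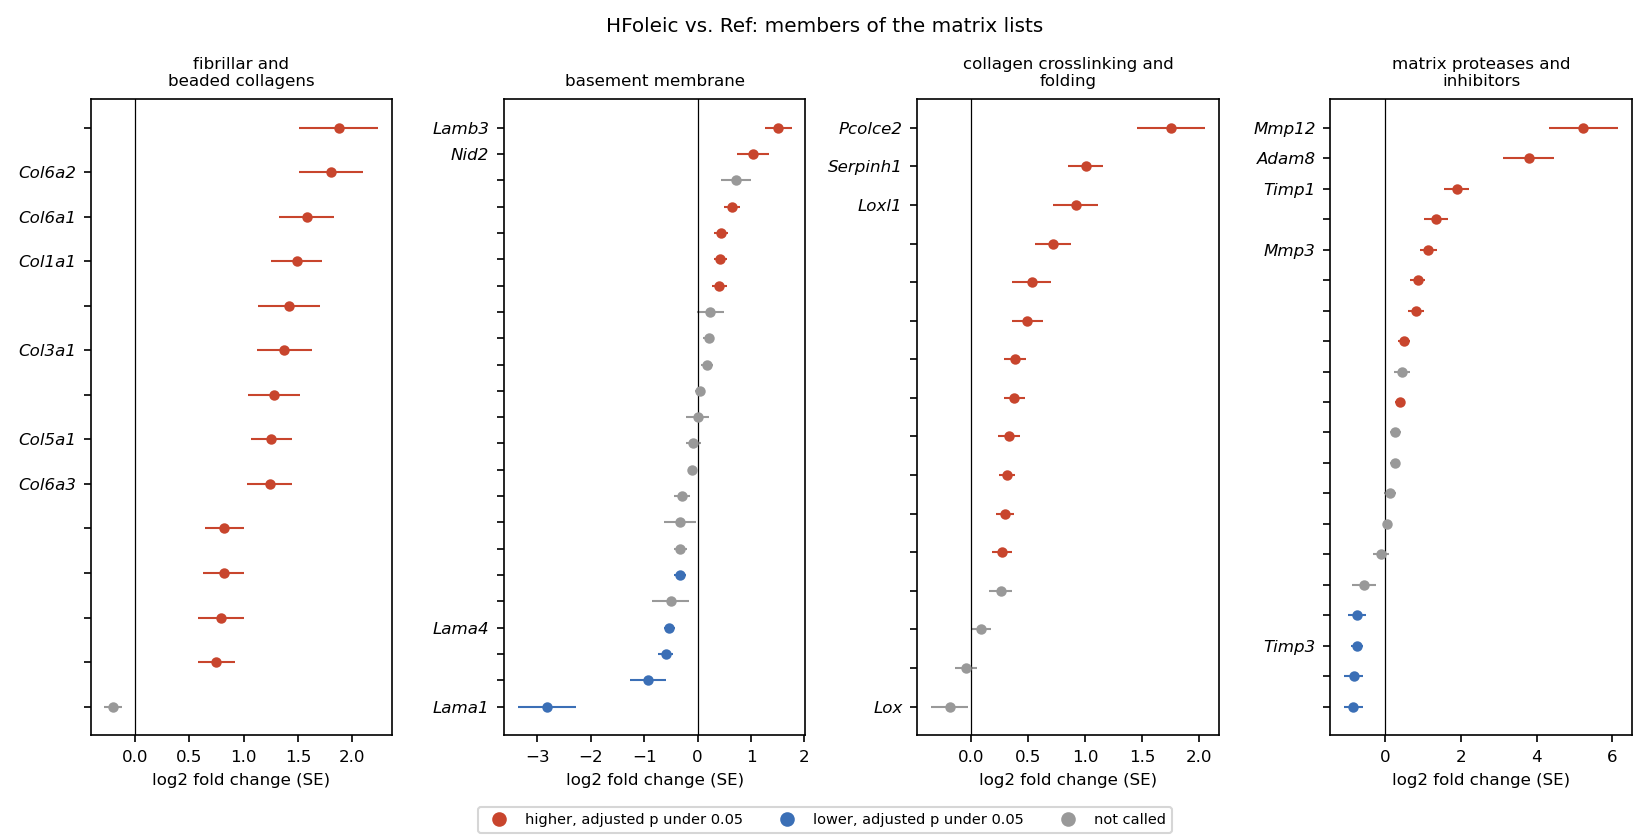
Change of every tested member of 4 matrix lists, with the genes named in the text labelled, as log2 fold change of HFoleic vs. Ref mice with its standard error (SE, 6 mice a group), coloured by the call. Of 14 fibrillar and beaded collagens 13 lie to the right, whereas the 23 genes of the basement membrane lie on both sides, with Lama1 lowest at -2.82.

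Genes of cell division were higher. Of 23 genes 21 were higher and 1 lower, with a median of 1.07. Top2a and Birc5, which act in mitosis, rose by 1.76 and 1.93, and the proliferation marker Mki67 rose by 1.55, from 8.296, 8.65 and 9.884 to 9.349, 10.46 and 11.05, with an overlap through Ref mouse 7. Tyms, which makes thymidylate for DNA, rose by 0.89 (SE 0.102, adjusted p = 1.38e-04) without overlap. The replicative helicase gene Mcm7 fell by 0.41, while its partners Mcm2, Mcm4, Mcm5 and Mcm6 rose by 0.79, 0.30, 1.22 and 0.69. Which cells divide cannot be told from whole tissue.

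Stress genes went both ways. Of 20 genes of the unfolded protein and integrated stress responses, 6 were higher and 6 lower. Asns (asparagine synthetase), Chac1, Sesn2 and Trib3, targets of the factor ATF4, fell by 1.33, 1.51, 1.12 and 0.88, while Atf4 differed by -0.11 and was not called. Hspa5 and Pdia6, which fold proteins in the endoplasmic reticulum, rose by 0.54 and 0.35, and the immediate-early factor Atf3 rose by 2.94 (SE 0.574, adjusted p = 0.00122). Heat shock genes had 2 of 14 higher and 1 lower, below the 15.2% and 16.7% of all genes. Of 29 antioxidant and glutathione genes, 10 were lower and 6 higher. Gpx3, a secreted glutathione peroxidase, fell by 1.79 from a range of 13.86 to 15.01 to one of 11.86 to 13.8, and the glutathione transferase Gsta3 fell by 1.56. Hmox1, which degrades haem, rose by 1.26. In the angiogenesis list 4 of 16 were higher and 4 lower, where 15.2% and 16.7% of all genes were higher and lower. The list thus leaned to neither side. Among its lower genes was Vegfa, the main growth factor of vessels, which fell by 0.81 without overlap. Splicing factors had 9 of 25 lower and 1 higher, or 5 lower after median centring.

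The remaining genes with the largest changes belonged to no list. Vsig8, an immunoglobulin-family membrane protein, had the largest rise, 42.5-fold, with 6.648, 7.065 and 7.814 in Ref mice against 11.36, 12.82 and 13.24 in HFoleic mice. Tph2, a tryptophan hydroxylase of neurons, rose by 4.25 (chromosome 10, 114516101 to 114516160), with HFoleic mice from 6.918 to 12.01 and 4 of 6 Ref mice well above background. Rgs1, a brake on chemokine receptors in leukocytes, rose by 3.98 and the ubiquitin-like modifier Ubd by 3.84 (chromosome 17, 37332688 to 37332747). Among the falls, Irf4, a factor of leukocytes and of fasting adipocytes, fell by 2.04, and the kinase Ripk4 and the Ras-association gene Rassf6 each fell by 2.03. The cytochrome Cyp2f2 fell by 3.36, with 1 Ref mouse at 14.02 above all others. The transcripts A830008E24Rik, 2010016I18Rik and Gm17116, which have no named function in the files, changed by -2.78, -2.61 and -2.24.

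Blood and neighbouring organs were read by the same means. Of 6 genes of red cells 5 were lower and none higher, with Alas2, the haem synthesis enzyme of erythroid cells, down by 1.27 (SE 0.213, adjusted p = 5.23e-04), from 12.1, 12.49 and 13.07 to 10.74, 11.09 and 12.01. The list lay between 11.14 and 11.93 in Ref mice and between 10.49 and 11.18 in HFoleic mice. How much blood the samples held was not measured, and its part in other falls was not tested. Of 10 mesothelial markers none was called, but single mice spread widely, with list levels from 7.206 to 9.629 in Ref and from 6.24 to 8.939 in HFoleic mice. None of the liver (7), epididymis (3) and pancreas (3) markers was called, while 1 of 4 testis markers was lower (Tnp2, by 0.25, a call lost without HFoleic mouse 4, 6 or 8 or Ref mouse 3 or 5). Among markers of brown and beige fat Ucp1 differed by -0.29 (adjusted p = 0.825), Dio2 was higher by 0.64 and Ppargc1a lower.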

How the data were processed

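RNA of epididymal VAT was measured on 1-colour Agilent arrays with 62976 spots. The authors scanned and quantified them with Agilent Feature Extraction 10.10.1.1 and deposited 1 file per array, whose median signal is a spot intensity on a linear scale. They also deposited a table of log2 values, normalized with limma, for 38168 probes, used here as an alternative. RNA below an integrity threshold had been left out by the authors.

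Here the log2 median signal was taken without background correction, marked spots were set to missing, probes well above background on at least 6 of 20 arrays were kept, arrays were quantile-normalized, and spots of a probe were averaged. limma 3.58.1 in R 4.3.3 fitted 3 groups over all 20 arrays, with Benjamini–Hochberg adjustment over 39391 probes and a threshold of 0.05. The number of arrays limits the precision. On simulated data 177 of 200 probes changed by a log2 value of 1 were recovered. Where several probes name a gene, the brightest on average stands for it. Probe names and mm9 positions come from the files, and promoters from RefSeq (GRCm38.p6), matched for 796 of 1012 list members.

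Groups were taken from the labels, and each array is 1 mouse. The named genes are the 10 largest rises and falls without overlap, up to 3 called genes per list and direction, and any member of a list. The members and lists were chosen with earlier results of these data known. The level of a list is the mean log2 signal of its tested members. Alternatives covered the signal, background, normalization, filter, slide, replicate number, array weights, probes per gene, samples fitted and each mouse left out. The arrays of the EPA lineage are not described here, and some list members are counted but not reported by name.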

Additional observations from a re-analysis of the deposited data

Results flagged for a closer look

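In 41 of 571 groups of 6 mice, over the lists and nearly all genes described, 1 mouse stood apart. The gap of that mouse to its nearest, as a share of the range of the group, passed Dixon's critical value for groups of 6. Chance sets a mouse apart in about 1 in 20 groups, and the genes are not independent of each other. The values below are log2 signals.

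HFoleic mouse 1 stood apart most often, with 12 of the 41, and lay on the side of the Ref mice in its genes of lipid metabolism and inflammation. It was high for Acaca (14.36), Lipe (13.85) and Irf4 (8.901), which were lower in HFoleic mice. It was low for the HFoleic-higher genes Scd2 (12.5), Lep (8.756), Hsd17b7 (9.713), Tpi1 (14.83), Lbp (12.5), Cfb (14.34), H2-Eb1 (15.63) and Lamb3 (8.375). Its mean level of the splicing factors was 12.43, above the other HFoleic mice at 12.28 to 12.31.

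HFoleic mouse 5 was high for the testis list (9.064) and the epididymis list (7.803), for Fads1 (9.492) and Srebf2 (10.52), and low for Ctsa (14.42). HFoleic mouse 6 was high for the liver list, at 11.66 against 7.44 to 8.823 in the other HFoleic mice, and low for Lyve1 (8.479). HFoleic mouse 4 was high for the resident perivascular macrophage list (11.26) and low for Scd1 (17.58), and HFoleic mouse 7 was high for Ptgs2 (6.87).

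Ref mouse 5 stood apart in 10 groups. It was high for the stress genes Atf4 (15.45), Hspa5 (15.03) and Hmox1 (12.45), for the heat shock list (12.94), and for Pparg (15.17), Tnf (6.791) and Cyp2f2 (14.02). It was low for Pycard (8.872), Tcirg1 (11.53) and Mcm6 (10.54). Ref mouse 7 was high for Col3a1 (14.89), Col5a1 (12.21), Mki67 (9.884) and Acly (14.36), and low for Acsm3 (11.31) and Cfd (18.45). Ref mouse 6 was low for Adipor1 (12.88), for the list of Toll-like receptors and adaptors (8.964) and for that of matrix proteases and inhibitors (9.383).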

How the results depend on the processing

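Replicate numbers 4 to 7 occur in both groups, but mice of the same number did not deviate together (correlations 0.141, -0.474, -0.0578 and 0.117), so they share only a number. With the replicate number as a block, 7872 probes were called (3758 higher, 4114 lower) and 5395 genes, from fewer mice. Within slide 1, 81 probes (65 higher, 16 lower) and 44 genes were called, within slide 2, 3 probes (3 higher, 0 lower) and 2 genes, and within slide 3, 11 probes (4 higher, 7 lower) and 9 genes. Without HFoleic mouse 5 and Ref mice 3 and 6, left out together after seeing the data, 6832 probes (3208 higher, 3624 lower) and 4731 genes were called. These fits hold fewer mice. Leaving out single mice gave 9834 to 13175 probes, 4907 to 6341 higher, 4927 to 6906 lower, and 6640 to 8857 genes. The other alternatives gave 11396 to 16019 probes, and 43% to 51% of the calls were higher, against 49.4%.

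Ncr1, a receptor of NK cells, was called higher by 0.24 (adjusted p = 0.0403), a call lost without any 1 of HFoleic mice 1, 6 and 8 and Ref mice 2, 3, 4 and 6 (adjusted p between 0.0558 and 0.112), without the 3 mice, with normexp or median centring, with the filter on a whole group and with slide as a block. Within slide 2, which holds 1 HFoleic mouse, it differed by -0.03235 (adjusted p = 0.939). Cidec changed sign with the processed signal, to -0.2768. The cause was not tested in either case. Of 181 of the called genes named here, 22 were not called when the 3 mice were left out and 16 in the replicate block. Without at least 1 single mouse 8 were not called, and 8 in at least 1 change of the processing. Signal over background limits the dimmest probes, whose changes are understated.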
